A study of Mus musculus with 20 samples.

Results

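The alpha, beta and gamma crystallins studied here were 9 genes of the 24411 in the table, taken by symbol alone: Cryaa and Cryab, Cryba1, Cryba2 and Cryba4, Crybb1, Crybb2 and Crybb3, and Crygs. All 9 passed the filter on low values, which kept 18807 genes. RNA came from posterior eyecups (RPE and choroid) of C57BL/6 mice, both eyecups of an animal pooled, after the anterior segment, the vitreous and muscle were cut away and the retina was peeled off with dispase. Wild-type mice (WT) and mice without Stra6, the retinol receptor of the RPE, were bred on a diet rich in vitamin A. From weaning they were fed for 12 weeks a vitamin A sufficient diet (VAS, 4 IU/g) or a vitamin A deficient diet (VAD, 0 IU/g), with 5 libraries for each of VAS WT, VAD WT, VAS Stra6-/- and VAD Stra6-/-. The WT mice were bought and the Stra6-/- mice, on a C57BL/6J background, were bred in house.

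Alpha-crystallins are small heat shock proteins. Cryaa is made mainly in the lens, and Cryab in many tissues, among them muscle, heart, glia and the RPE. Beta- and gamma-crystallins form another family of compact structural proteins, packed into lens fibres to give the lens its refractive power. Both kinds are also transcribed at a lower level in the retina, where photoreceptors, ganglion cells and glia have been reported to make them.

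Several libraries went against their labels or stood apart, and this bears on every comparison below. Stra6 had 2414 to 2742 normalized reads (reads divided by a library's size factor) in VAS WT and 564 to 694 in VAS Stra6-/-, but 1973 to 2393 in libraries under the VAD Stra6-/- label, and this group is named as such throughout. In VAD WT it had 669 to 697 in replicates 1, 3 and 5, near the level of VAS Stra6-/-, and 1340 to 1529 in replicates 2 and 4. VAD WT and VAD Stra6-/- are therefore compared below as labelled groups only. The sex-linked genes also split the libraries. Xist, transcribed from the inactive X chromosome, had 7.69 to 38.4 reads in VAS WT, 174 to 234 in VAD WT replicates 1, 3 and 5, 10912 to 11767 in VAD WT replicates 2 and 4, and 15320 to 18052 in VAS Stra6-/-. The Y-linked Ddx3y had 981 to 1193 in VAS WT, 1041 to 1133 in VAD WT replicates 1, 3 and 5, 75.2 to 80.5 in VAD WT replicates 2 and 4, and at most 1.02 in VAS Stra6-/-. In libraries under the VAD Stra6-/- label, Xist (3570 to 4280) and Ddx3y (741 to 970) were both present. Genotype and sex-linked expression cannot be told apart on the VAS diet. Depth was 13331903 to 21878614 reads per library.

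The 9 genes differed widely in level. Per kilobase of transcript in VAS WT, the mean level was 6863 ± 148 (SD, n = 5) normalized reads for Cryab, 2827 ± 150 for Cryaa and 2248 ± 266 for Crybb2. Cryba1 (814 ± 113), Crygs (655 ± 86.0), Cryba2 (498 ± 52.9) and Cryba4 (333 ± 39.1) followed, and Crybb1 (215 ± 40.2) and Crybb3 (214 ± 38.5) were lowest. Together they made up 0.0744% to 0.0849% of all normalized reads in VAS WT and 0.0358% to 0.0374% in VAS Stra6-/-. Cryab was 42.7% to 47.4% of that sum in VAS WT and 81.6% to 83.7% in VAS Stra6-/-. The sum over all 9 therefore mostly follows Cryab in the latter group.

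The members lie on several chromosomes. In the GENCODE annotation (vM21, GRCm38), Cryaa is at chr17:31677807-31681733 and Cryab at chr9:50751325-50756636. Cryba1 is at chr11:77718615-77725283, Cryba2 at chr1:74889934-74893143 and Crygs at chr16:22805203-22811577. Cryba4 (chr5:112246493-112252518) and Crybb1 (chr5:112255815-112269585) are neighbours that point away from each other. Crybb2 (chr5:113058258-113070117) and Crybb3 (chr5:113075839-113081584) are neighbours on the same strand. The span of Cryab overlaps that of Hspb2 on the other strand, and since the strandedness of the counting is not given in the sources used here, reads of the overlap cannot be told apart.

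Because 8 of the genes moved together, their promoters were searched for TGCTGA, the core of the recognition element of the large Maf factors that drive lens crystallin genes. The window was the 250 bases before each RefSeq start (GRCm38.p6), on both strands. TGCTGA was found in 7 of the 8 members with a promoter in the RefSeq table, and in 16.1% of all 32851 promoters. The matches are shown because 7 of these genes hold them, each as 30 bases 5′ to 3′ on the strand that reads TGCTGA, with that core in capitals.
Cryaa, chr17:31677811-31677840, plus strand: gagcattccagcTGCTGAcggtgcagcctc
Cryba1, chr11:77725333-77725362, minus strand: gggaaaagagagTGCTGAcagagccgctgg
Cryba2, chr1:74893275-74893304, plus strand: gacaacggaaagTGCTGAggcgcacatcgt
Cryba4, chr5:112252578-112252607, minus strand: ctatctctggctTGCTGAgtctgtgtttgt
Crybb1, chr5:112255724-112255753, plus strand: cccatccaggttTGCTGAcccagctgcctc
Crybb3, chr5:113081634-113081663, plus strand: cacattacgggaTGCTGAgatagcatcctg
Crygs, chr16:22811593-22811622, plus strand: cattgtaggctcTGCTGAatcaaggcaccc

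The cores began 108 (Cryaa), 57 (Cryba1), 149 (Cryba2), 77 (Cryba4), 84 (Crybb1), 67 (Crybb3) and 200 (Crygs) bases before the start. Cryba4 held 2 more, 135 and 182 bases before it. The Cryaa match lies inside the GENCODE gene span, which begins upstream of the RefSeq start. Crybb2 had no match in its window, which says only that these letters are not there, and the promoter of Cryab was not analysed here. AGGTCA, the core of retinoic acid receptor elements, was found in 1 of 8 promoters (Cryba4) and in 14.0% of all promoters. The paired heat shock units GAANNTTC and TTCNNGAA were found in 0 and 1 (Cryba1) of 8, and in 6.69% and 7.17% of all promoters. A match is a description, not a bound site.

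**Figure D1:**
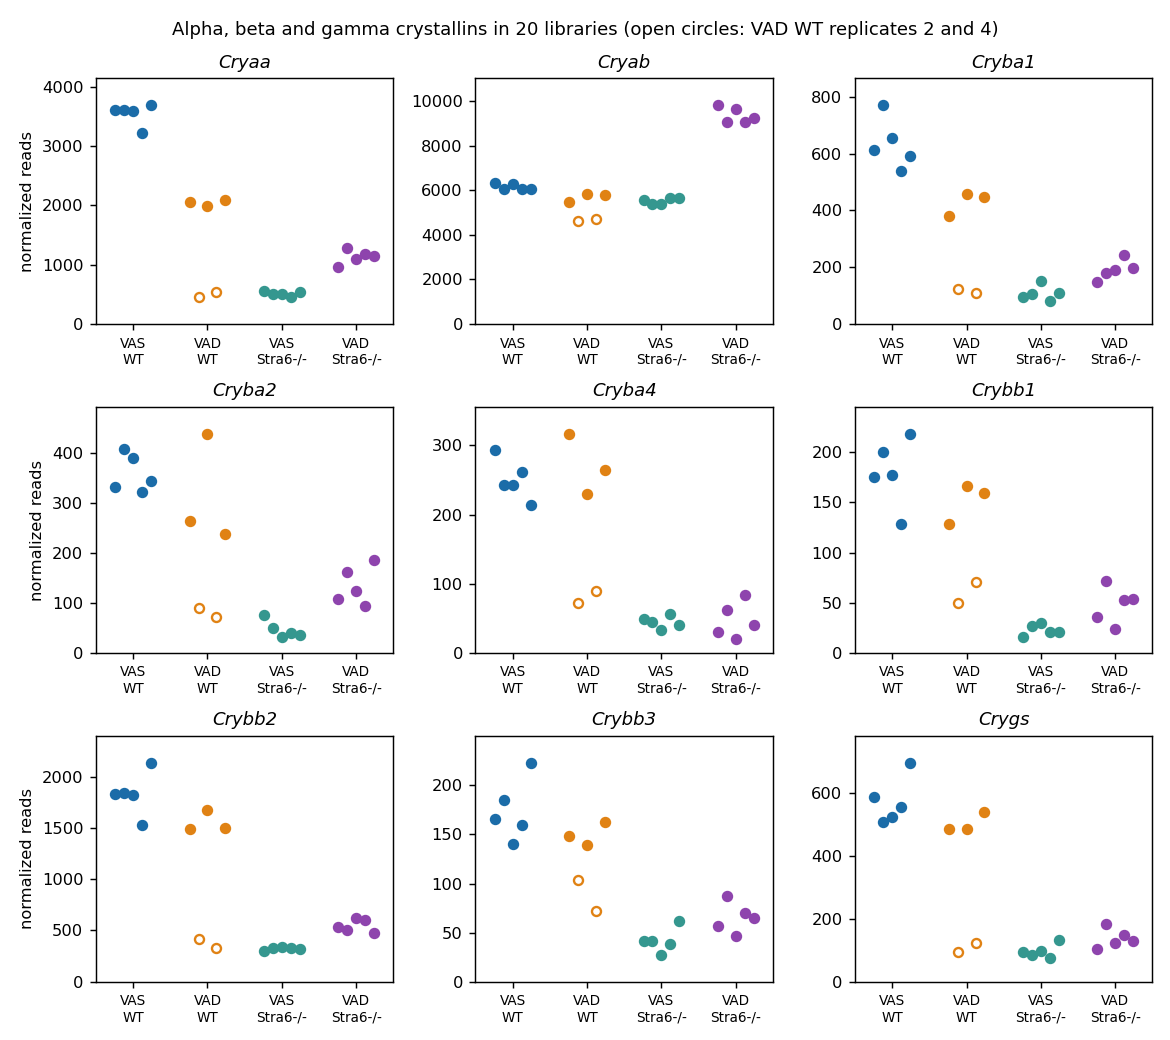
Normalized reads of each crystallin (y axes, linear, each from 0) in the 20 libraries by group (x axis), 1 point per library. For 8 of the 9 genes the points are highest in VAS WT or in VAD WT replicates 1, 3 and 5 and low in VAD WT replicates 2 and 4 (open circles), while Cryab is highest in libraries under the VAD Stra6-/- label (9077 to 9838).

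Cryaa, the lens chaperone, had the highest level of the group after Cryab. It had 3610, 3607, 3591, 3217 and 3699 normalized reads in VAS WT replicates 1 to 5. In VAD WT it had 2062, 462, 1988, 545 and 2095. Replicates 2 and 4 of VAD WT were thus about 4 times lower than replicates 1, 3 and 5, with a mean of 14.2% of the VAS WT mean against 57.8%. It had 550, 510, 499, 456 and 541 in VAS Stra6-/- and 953, 1281, 1089, 1189 and 1153 in libraries under the VAD Stra6-/- label. The ranges of these last groups did not overlap with each other or with VAS WT. VAD WT replicates 2 and 4 lay at the level of VAS Stra6-/-, whose mean was 14.4% of VAS WT.

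Cryab, the alpha-crystallin that is also a stress chaperone outside the lens, had another pattern. It had 6312, 6058, 6277, 6053 and 6047 reads in VAS WT and 5461, 4617, 5824, 4730 and 5769 in VAD WT. It had 5570, 5366, 5374, 5637 and 5640 in VAS Stra6-/- and 9838, 9084, 9636, 9077 and 9228 in libraries under the VAD Stra6-/- label. The last group stood above all 15 other libraries, which lay within 4617 to 6312. VAD WT replicates 2 and 4 were again the lowest, but at 76.0% of the VAS WT mean.

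The acidic beta-crystallins followed Cryaa. Cryba1 had 611, 772, 656, 539 and 591 reads in VAS WT, and 381, 122, 457, 109 and 447 in VAD WT. It had 96.5, 105, 150, 81.1 and 109 in VAS Stra6-/- and 148, 178, 188, 242 and 195 in libraries under the VAD Stra6-/- label. Both low VAD WT libraries were within the range of VAS Stra6-/-, and the other 3 stood between VAS Stra6-/- and VAS WT. Cryba2 had 321 to 408 reads in VAS WT and 32.5 to 76.2 in VAS Stra6-/-, with 264, 90.6, 438, 71.0 and 238 in VAD WT and 93.9 to 185 in libraries under the VAD Stra6-/- label. Cryba4 had 213 to 294 reads in VAS WT, and 317, 72.1, 230, 89.9 and 265 in VAD WT, where replicates 1, 3 and 5 had a mean of 108% of VAS WT. It had 33.6 to 55.7 in VAS Stra6-/- and 20.5 to 83.4 in libraries under the VAD Stra6-/- label, so that these last 2 groups overlapped fully, unlike those of Cryba2.

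Crybb2 was the most abundant of the basic beta-crystallins. It had 1834, 1843, 1820, 1526 and 2139 reads in VAS WT and 1487, 415, 1678, 331 and 1496 in VAD WT. It had 301, 328, 342, 333 and 319 in VAS Stra6-/- and 531, 508, 621, 604 and 479 in libraries under the VAD Stra6-/- label. The 5 values of VAS Stra6-/- were close together and below every other library but VAD WT replicate 4. Crybb1 had 129 to 219 reads in VAS WT, 16.3 to 29.5 in VAS Stra6-/- and 23.5 to 71.3 in libraries under the VAD Stra6-/- label, and had 129, 49.4, 166, 71.0 and 160 in VAD WT. Crybb3 had 140 to 223, 27.5 to 61.8 and 46.1 to 87.5 reads in the same groups and had 149, 104, 139, 71.9 and 162 in VAD WT. Its VAD WT replicates 2 and 4 were at 50.3% of the VAS WT mean, the smallest gap among the 8 genes that followed Cryaa.

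Crygs, the gamma-type crystallin that is encoded apart from the gamma cluster, had 586, 506, 522, 556 and 696 reads in VAS WT and 486, 95.8, 484, 124 and 538 in VAD WT. It had 93.4, 85.6, 97.6, 76.0 and 133 in VAS Stra6-/- and 103, 185, 123, 147 and 129 in libraries under the VAD Stra6-/- label. VAD WT replicates 1, 3 and 5 were at 87.6% of the VAS WT mean and replicates 2 and 4 at 19.2%.

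In order of the means, VAS WT was highest, then VAD WT, then libraries under the VAD Stra6-/- label, then VAS Stra6-/-, for each of the 8 genes other than Cryab. Neighbours in that order overlapped in most genes. VAS WT and VAD WT did not overlap for Cryaa and Cryba1, and the 2 Stra6-/- groups did not overlap for Cryaa, Cryba2 and Crybb2. Of all genes tested, 4.21% lay wholly lower in VAD WT than in VAS WT, and 24.5% wholly higher in libraries under the VAD Stra6-/- label than in VAS Stra6-/-. For Cryab the order was libraries under the VAD Stra6-/- label, VAS WT, VAS Stra6-/- and VAD WT, and only the last 2 overlapped.

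The first comparison asked what the loss of Stra6 does on a sufficient diet. Cryaa in VAS Stra6-/- was at 0.144 of its VAS WT level, a log2 fold change of -2.79 ± 0.32 (SE) (limma, adjusted p = 1.36e-06, n = 5 and 5). The acidic beta-crystallins Cryba1, Cryba2 and Cryba4 fell to 0.170, 0.127 and 0.179 of it, the basic Crybb1, Crybb2 and Crybb3 to 0.131, 0.178 and 0.241, and Crygs to 0.169, with limma adjusted p from 1.36e-06 to 4.78e-05. So 8 of 9 crystallins were called lower, while 10.8% of all genes tested were, at an adjusted p under 0.05. With values scaled to equal library totals, an alternative chosen after seeing the data, 17.3% of all genes were called lower, and the split over all genes was 2011 higher and 3262 lower in place of 2984 higher and 2026 lower. Cryab was at 0.897 of the VAS WT level and did not pass (log2 -0.16 ± 0.07, limma adjusted p = 0.0925). The 2 groups did not overlap for any of the 9, Cryab included, as was so for 13.2% of all genes in this direction. The SE comes from all 4 groups and so holds the spread within VAD WT: with VAD WT replicates 2 and 4 left out, the same difference of Cryab had an adjusted p of 7.70e-04. Here and below, the split of VAD WT into replicates 2 and 4 and replicates 1, 3 and 5 was chosen after their values were seen. The p-values of fits on either part are therefore descriptive. In whole tissue, fewer cells of a type and less RNA per cell cannot be told apart.

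**Figure D2:**
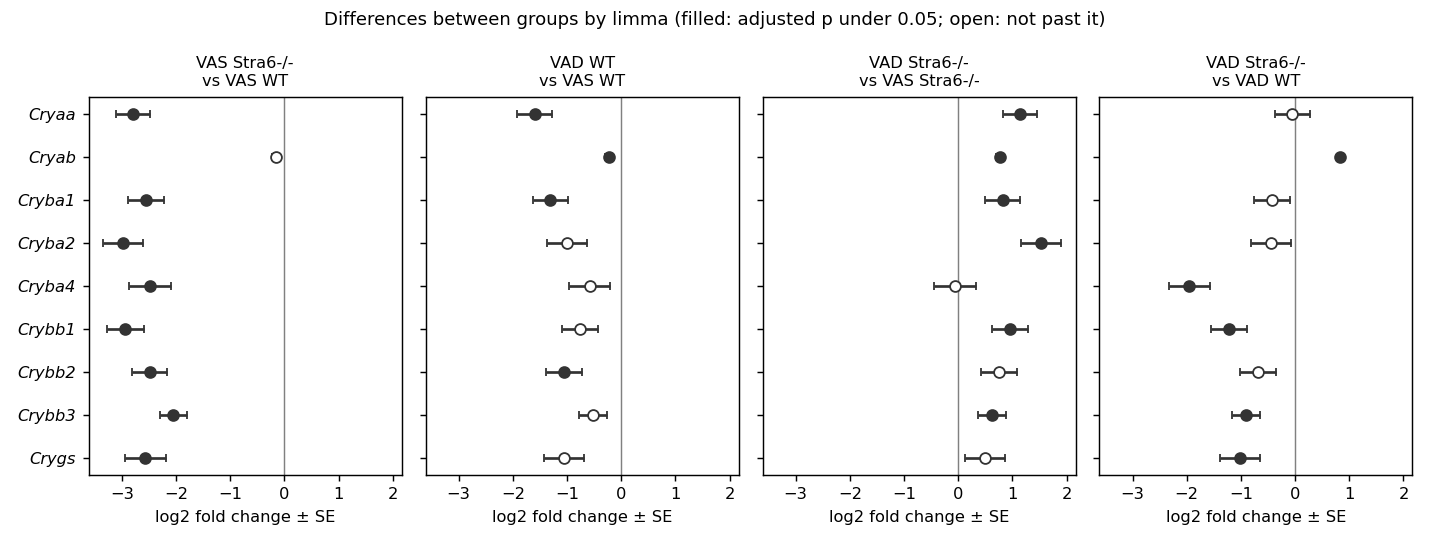
Log2 fold changes (x axes) of the 9 crystallins (rows) in 4 comparisons, from limma on log2(normalized reads + 1) with all 20 libraries. Points are estimates and bars their SE, filled where the adjusted p is under 0.05: 8 of 9 are lower in VAS Stra6-/- than in VAS WT, 4 are lower in VAD WT than in VAS WT, and 6 are higher in libraries under the VAD Stra6-/- label than in VAS Stra6-/-. Of all genes tested, 10.8%, 5.5% and 24.4% were called in these directions.

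The second comparison was designed for the effect of the deficient diet in WT mice. Since Stra6 in VAD WT replicates 1, 3 and 5 was near the level of VAS Stra6-/-, it compares the groups as labelled. Cryaa was lower in VAD WT, at 0.330 of VAS WT (log2 -1.60 ± 0.32, limma adjusted p = 0.00227), as were Cryba1 at 0.403 (adjusted p = 0.0131), Crybb2 at 0.481 (0.0481) and Cryab at 0.855 (0.0384). These 4 of 9 stood against 5.50% of all genes called lower (6.43% at equal library totals, where the split was 419 higher and 1209 lower in place of 618 and 1034). The differences of Cryba2 (-1.001 ± 0.37), Crygs (-1.06 ± 0.37), Crybb1 (-0.77 ± 0.34), Cryba4 (-0.58 ± 0.38) and Crybb3 (-0.52 ± 0.25) did not pass, with limma adjusted p from 0.0851 to 0.409. Most of the size came from VAD WT replicates 2 and 4. Without them, Cryaa was still lower by a log2 of -0.79 (adjusted p = 8.69e-08), Cryba1 by -0.56 (0.0152) and Cryab by -0.11 (0.0252), while Crybb2 was at -0.23 (0.0626), Crygs at -0.18 (0.462) and Cryba4 at 0.11 (0.839). With only replicates 2 and 4 for VAD WT, all 9 were lower, beside 15.7% of all genes in that fit. Cryaa was at -2.82, Crygs at -2.37 and Crybb3 at -0.99. Those 2 libraries were the lowest of VAD WT for these genes and were set apart after their values were seen. The call of Crybb2 was lost in 17 of the 20 fits that left out a single library, with adjusted p up to 0.108, and that of Cryab in 7, with adjusted p up to 0.0772. Those 7 were the 5 VAS WT libraries and VAD WT replicates 2 and 4, and the call of Crybb2 was kept without VAD WT replicate 1, 3 or 5.

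The third comparison set libraries under the VAD Stra6-/- label against VAS Stra6-/-. Since Stra6 itself was near the VAS WT level in the former, the direction is that of the labels only. Here 6 of 9 crystallins were higher, against 24.4% of all genes called higher. Cryba2 was at 2.89 times the VAS Stra6-/- level (limma adjusted p = 0.00143), Cryaa at 2.21 (0.00446), Crybb1 at 1.94 (0.0209), Cryba1 at 1.76 (0.0397), Cryab at 1.70 (3.17e-09) and Crybb3 at 1.54 (0.0428). Crybb2 (1.68 times, adjusted p = 0.0603), Crygs (1.41 times, 0.281) and Cryba4 (0.962, 0.925) did not pass. Although Crybb2 did not overlap between these groups, its SE held the spread within VAD WT, and without VAD WT replicates 2 and 4 its adjusted p was 8.43e-08 at the same log2 of 0.75. Without VAS Stra6-/- replicate 1, or without replicate 2 of libraries under the VAD Stra6-/- label, 3 genes in place of 6 were called, since Cryba1 (adjusted p = 0.0742 and 0.0572), Crybb1 (0.0554 and 0.0667) and Crybb3 (0.0628 and 0.114) no longer passed. Over all genes tested, 4364 and 4390 were called higher in these fits, in place of 4596. Leaving out other single libraries of these groups also ended the call of Cryba1 (VAS Stra6-/- replicates 2, 4 and 5, and replicates 3, 4 and 5 under the VAD Stra6-/- label, adjusted p up to 0.0970) and of Crybb3 (VAS Stra6-/- replicates 2, 3 and 4, and replicates 4 and 5 under the VAD Stra6-/- label, adjusted p up to 0.123).

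The fourth comparison set libraries under the VAD Stra6-/- label against VAD WT. Cryab was higher, at 1.78 times the VAD WT level (limma adjusted p = 8.34e-10), beside 26.2% of all genes called higher. Cryba4 (0.258 of VAD WT, adjusted p = 1.68e-04), Crybb1 (0.431, 0.00398), Crygs (0.496, 0.0251) and Crybb3 (0.533, 0.00415) were lower, which is 4 of 9 beside 29.6% of all genes called lower. Cryaa (log2 -0.05 ± 0.32), Cryba1, Cryba2 and Crybb2 did not pass. This comparison turned on which VAD WT libraries were used, by a split made after their values were seen. Without replicates 2 and 4, 8 of 9 were lower, beside 32.5% of all genes in that fit, and Cryaa was at a log2 of -0.86 (adjusted p = 3.78e-09). With those alone, Cryba4 (-0.92, adjusted p = 0.0517), Crybb1 (-0.42, 0.361) and Crybb3 (-0.44, 0.237) did not pass, and Cryaa was higher by 1.17 (1.12e-08), Cryba1 by 0.70 (0.00750) and Crybb2 by 0.56 (6.95e-04). Crygs did not pass without VAD WT replicate 1 (0.0832), 3 (0.0832) or 5 (0.0921), or without replicate 1 of libraries under the VAD Stra6-/- label (0.0624).

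The difference between the diet effects under the 2 genotype labels was tested as an interaction. Stra6 went against the label in libraries of both VAD groups, so it is a difference between labelled groups only. It was positive for 8 of 9 crystallins, beside 19.5% of all genes called higher in it, from a log2 of 0.99 ± 0.09 for Cryab (limma adjusted p = 2.29e-08) to 2.74 ± 0.45 for Cryaa (3.56e-05). For Cryba4 it was 0.53 ± 0.54 (adjusted p = 0.462). Without VAD WT replicates 2 and 4 the interaction of Cryaa was 1.93 and that of Crygs 0.68 (adjusted p = 0.0202), and the same 8 genes passed. In that fit 4831 of all 18807 genes were called higher, in place of 3663.

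Ratios within a library show how far the members kept step. Crybb2 had 0.516 ± 0.038 (SD, n = 5) reads per read of Cryaa in VAS WT, 0.757 ± 0.115 in VAD WT, 0.639 ± 0.073 in VAS Stra6-/- and 0.489 ± 0.080 in libraries under the VAD Stra6-/- label. Over the 20 libraries that ratio spanned 2.26-fold while the level of Crybb2 itself spanned 7.11-fold. Cryba1 per Cryaa spanned 2.17-fold and Crygs per Cryaa 2.38-fold, against level ranges of 9.52-fold and 9.16-fold. Cryba4 per Cryaa was looser, spanning 8.77-fold, from 0.143 ± 0.021 in VAD WT to 0.041 ± 0.020 in libraries under the VAD Stra6-/- label. Cryab kept no step with Cryaa, with 1.74 ± 0.09 reads per read of Cryaa in VAS WT and 10.8 ± 0.88 in VAS Stra6-/-.

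**Figure D3:**
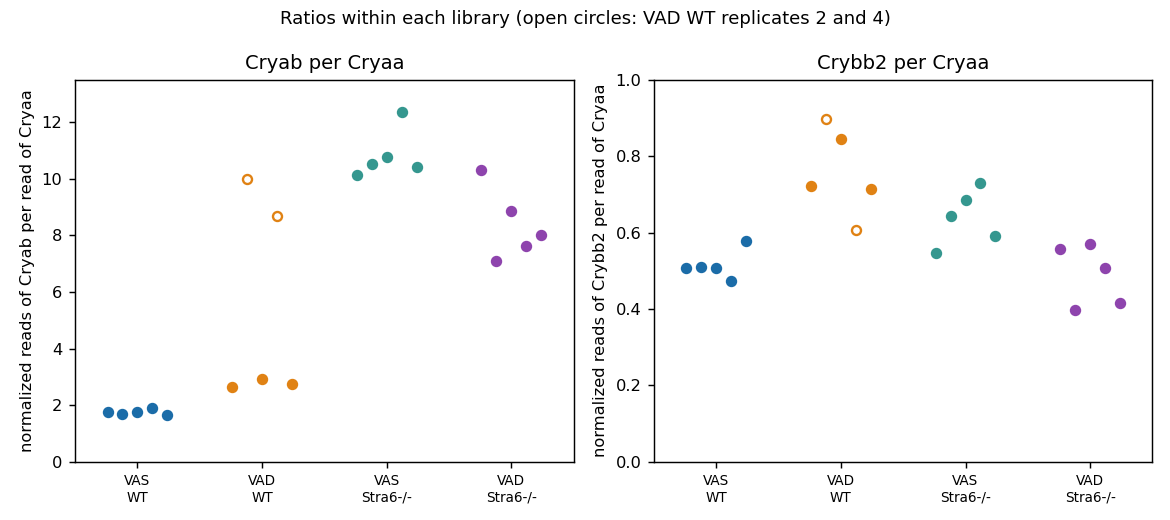
Normalized reads of Cryab (left) and Crybb2 (right) per read of Cryaa in each of the 20 libraries by group, y axes linear from 0, 1 point per library. Cryab per Cryaa runs from 1.63 to 12.4, while Crybb2 per Cryaa stays between 0.396 and 0.898.

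The lens was removed with the anterior segment, so the genes of lens fibres were set beside the crystallins. All 10 fibre genes were detected in some library, but at low level. Their summed reads were 692 to 869 in VAS WT, 714 to 795 in VAD WT replicates 1, 3 and 5, 324 to 362 in VAD WT replicates 2 and 4, 288 to 399 in VAS Stra6-/-, and 715 to 855 in libraries under the VAD Stra6-/- label. The sum under that label was near that of VAS WT, but its parts were not. Bfsp2 had 390 to 621 reads there and 214 to 347 in VAS WT, and Lim2 91.3 to 192 and 49.8 to 106. Bfsp1 (53.4 to 123 and 214 to 317), Lgsn (2.71 to 15.8 and 30.2 to 71.7) and Mip (16.2 to 29.2 and 32.7 to 64.2) were lower there. Mip, the water channel that is the most abundant membrane protein of fibres, had 15.4 to 64.2 reads in the 20 libraries. The highest of the list were the beaded filament genes Bfsp2 and Bfsp1 and the fibre membrane gene Lim2. In VAS Stra6-/- against VAS WT, 5 of the 10 were called lower, beside 10.8% of all genes, and the others did not pass. The median log2 of the 10 was -1.004, beside 0.02 over all genes tested. Bfsp2 was lower at a log2 of -1.46 (limma adjusted p = 1.73e-06) and Bfsp1 at -1.19 (0.00881), and Mip was at -0.13 (0.822). In libraries under the VAD Stra6-/- label against VAS Stra6-/-, Bfsp2 (2.16, adjusted p = 5.36e-10) and Lim2 (1.59, 7.07e-04) were higher and Mip (-0.996, 0.0168) was lower. The part of lens RNA in the crystallin differences was not tested.

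The gamma-crystallins of the chromosome 1 cluster, which are markers of fibres more than Crygs is, split from Cryaa. Crygb had 98.5 to 133 reads in VAS WT, 207 to 332 in VAD WT replicates 1, 3 and 5, 44.3 to 51.4 in VAD WT replicates 2 and 4, 14.2 to 31.9 in VAS Stra6-/- and 13.1 to 34.2 in libraries under the VAD Stra6-/- label. Crygc and Crygd, which share much of their sequence with it, had the same order of means down to VAD WT replicates 2 and 4, with both Stra6-/- groups below. In VAD WT replicates 1, 3 and 5 the sum of the 3 genes was 644 to 886, above the 310 to 480 of VAS WT, whereas Cryaa was lower in those libraries than in VAS WT. Their summed reads per read of Cryaa were 0.324 to 0.423 there and 0.0891 to 0.130 in VAS WT. The log2 fold changes of Crygb, Crygc and Crygd between VAS Stra6-/- and VAS WT were -2.30, -2.72 and -2.82 (limma adjusted p = 7.19e-04, 3.24e-04 and 4.70e-04), and those between VAD WT and VAS WT (0.24, 0.04 and 0.42) did not pass. Between libraries under the VAD Stra6-/- label and VAS Stra6-/- they were at -0.13, -0.21 and 0.34, which did not pass either. Parts of this pattern were also seen in Cryba4, with 230 to 317 reads in VAD WT replicates 1, 3 and 5 and 213 to 294 in VAS WT. Its ranges in the Stra6-/- groups overlapped fully. Cryga, Cryge and Crygf had at most 5.85 reads. Near-identical copies in this cluster make the split of reads among its genes uncertain.

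**Figure D4:**
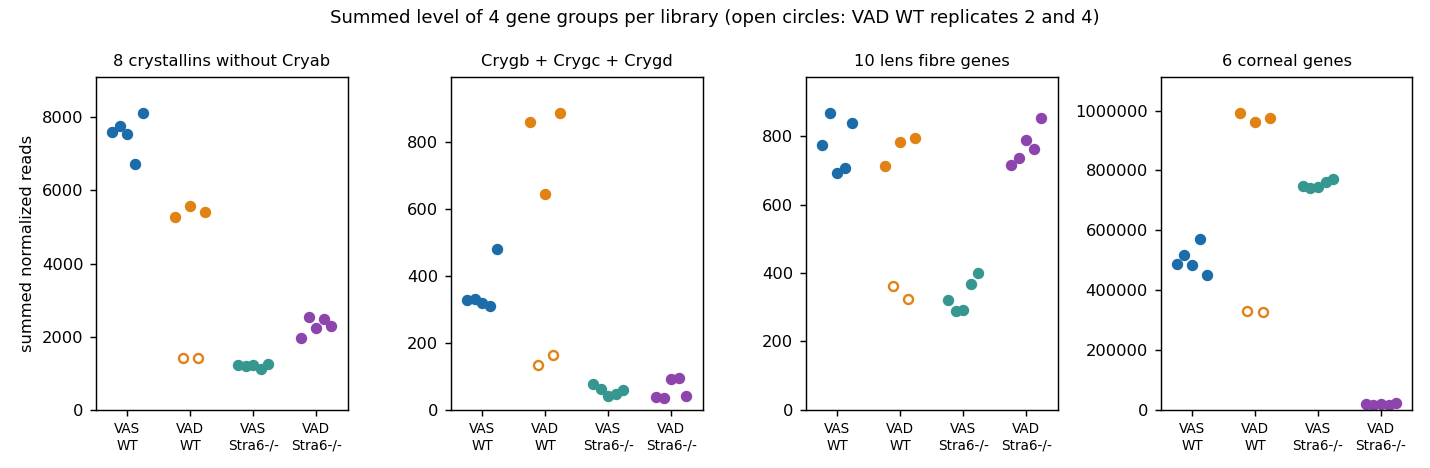
Summed normalized reads (y axes, linear from 0) per library and group for the 8 crystallins other than Cryab, for Crygb, Crygc and Crygd, for 10 lens fibre genes and for 6 corneal genes. The 8 crystallins are at 6710 to 8125 in VAS WT and 1101 to 1261 in VAS Stra6-/-, while the corneal sum is 16555 to 21873 only in libraries under the VAD Stra6-/- label and at least 327192 in the others. Bfsp2 (390 to 621 reads) is the largest part of the fibre sum under that label.

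The other genes of the beta/gamma family are not lens proteins in the main. Crybg1 and Crybg2, listed under the older symbols Aim1 and Aim1l, and Crybg3 code for large proteins with crystallin-type domains. Of the 8 such genes tested (the gamma cluster included), 3 were higher and 4 lower in VAS Stra6-/- than in VAS WT. Over all genes tested, 15.9% were called higher and 10.8% lower in that comparison. Aim1 was at 0.55, Aim1l at 0.61 and Crybg3 at 0.45 there on the log2 scale. In libraries under the VAD Stra6-/- label against VAS Stra6-/- these 3 were the ones called lower, beside 28.8% of all genes. Aim1l was at -5.56, Aim1 at -2.74 and Crybg3 at -2.14. The sum of 6 corneal genes moved beside them, at 740825 to 771585 in VAS Stra6-/- and 16555 to 21873 in libraries under the VAD Stra6-/- label. Of the 6, 5 were called lower and 1 higher, beside 28.8% and 24.4% of all genes. The part of corneal RNA in these values was not tested. Crygn, a gamma-type crystallin known from the retina, had 76.9 to 163 reads in VAS WT and 57.1 to 77.7 in VAS Stra6-/- (log2 -0.74, adjusted p = 0.0495).

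Markers of other cells in the eyecup differed between the same libraries. The summed reads of 13 rod genes were 154863 to 177617 in VAS WT, 134843 to 139148 in VAD WT replicates 1, 3 and 5, 345835 to 346452 in replicates 2 and 4, 173668 to 185918 in VAS Stra6-/- and 97418 to 111131 in libraries under the VAD Stra6-/- label. Thus the VAD WT libraries with few crystallin reads had the most rod reads, and VAS Stra6-/- had few crystallin reads at a rod level near that of VAS WT. The 13 inner retina neuron genes summed to 8660 to 9983, 8614 to 9315, 14959 to 15193, 8049 to 8285 and 5714 to 6002 in the same order. The 5 Müller glia genes summed to 33783 to 36389, 30610 to 32589, 48780 to 51282, 50816 to 52610 and 57574 to 65466, and the 12 RPE genes to 131205 to 147698, 42372 to 45417, 79233 to 81522, 146721 to 153964 and 535149 to 580417. The RPE genes and Cryab were both highest in libraries under the VAD Stra6-/- label. In that order, 13 skeletal muscle genes summed to 15190 to 17899, 5282 to 5343, 16807 to 17979, 37910 to 41703 and 24072 to 29023. The 5 oligodendrocyte genes summed to 8060 to 9030, 16207 to 17750, 4833 to 5043, 4155 to 4513 and 3658 to 4999. What part any of these cell types has in the crystallin values was not tested.

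Regulators of crystallin genes were set beside the members. Of 12 genes, among them Pax6, Prox1, Six3, Foxe3, Pitx3 and Hsf4, 3 were lower and 1 was higher in VAS Stra6-/- than in VAS WT. Over all genes tested, 10.8% were called lower and 15.9% higher in that comparison. Pax6, the eye field factor, was at -0.17 (limma adjusted p = 0.577) there. It had 6065 to 6467 reads in VAS WT, 9884 to 10555 in VAD WT replicates 1, 3 and 5, 4342 to 4446 in VAD WT replicates 2 and 4, 5436 to 5782 in VAS Stra6-/- and 1969 to 2397 in libraries under the VAD Stra6-/- label. Six3, another eye field factor, was at -0.35 (0.215). The lens fate genes Foxe3 and Pitx3 had at most 8.93 and 33.4 reads in any library, and Hsf4, the heat shock factor that acts on lens crystallin genes, was at -0.26 (0.280) between the VAS groups.

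Small heat shock proteins were compared with Cryab, which is one of them. Of 6 (Hspb1, Hspb2, Hspb3, Hspb6, Hspb7 and Hspb8), 3 were higher in VAS Stra6-/- than in VAS WT and the others did not pass, beside 15.9% of all genes called higher. In libraries under the VAD Stra6-/- label against VAS Stra6-/-, 2 were higher and 1 lower, beside 24.4% and 28.8% of all genes. Hspb1, which forms mixed complexes with Cryab, had 7810 to 9169 reads in VAS WT, 20136 to 21121 in VAD WT replicates 1, 3 and 5, 7304 to 7385 in VAD WT replicates 2 and 4, 14936 to 15628 in VAS Stra6-/- and 2357 to 2856 in libraries under the VAD Stra6-/- label. Hspb8, a partner of Bag3 in chaperone-assisted autophagy, was higher by 0.81 (limma adjusted p = 2.91e-07) where Cryab was higher by 0.76, and Hspb6 was at 0.10 (0.569). Hspb2, the neighbour that overlaps Cryab, had 70.2 to 174 reads in the 20 libraries, beside the 4617 to 9838 of Cryab. Of the 9 heat shock chaperones, led by Hspa8, Hsp90aa1 and Hspa1b, 8 were higher in VAS Stra6-/- than in VAS WT, beside the same 15.9% of all genes, and 2 were higher and 5 lower in libraries under the VAD Stra6-/- label than in VAS Stra6-/-, beside the same 24.4% and 28.8%.

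Among 15545 genes with a mean of at least 10 reads, leaving out the crystallins and the other genes of the beta/gamma family, the 3 most like each crystallin by Pearson's r of log2(reads + 1) over the 20 libraries were named. The 20 libraries form clusters by group, so r is a description of that pattern. Appl2, Cartpt and Podxl2 were the 3 for Cryaa (r = 0.949, 0.935 and 0.921), for Cryba1 (0.949, 0.940 and 0.919) and for Crybb2 (0.960, 0.975 and 0.955). Cartpt, a neuropeptide precursor, had 1452 to 1663 reads in VAS WT, 1501 to 1644 in VAD WT replicates 1, 3 and 5, 574 and 818 in replicates 2 and 4, 496 to 667 in VAS Stra6-/- and 753 to 884 in libraries under the VAD Stra6-/- label. Appl2 and Cartpt were also among the 3 for Crygs (0.954 and 0.941, with Zfp90 at 0.932). Cartpt led for Cryba2 (0.941, with Tada2a at 0.931 and Cx3cr1 at 0.914) and was among those of Crybb3 (0.913, after Hnrnph1 at 0.930 and Zfp90 at 0.923). For Crybb1 they were Rbm39 (0.918), Ugt8a (0.902) and Cx3cr1 (0.901), and for Cryba4 they were Csf2ra (0.934), 3000002C10Rik (0.917) and Nrbp2 (0.917). Cryab had others: Csf1r (0.985), the receptor of a macrophage growth factor, Gpx3 (0.983), an extracellular glutathione peroxidase, and Fbxw4 (0.981). Csf1r had 1520 to 1759 reads in VAS WT and 4288 to 4848 in libraries under the VAD Stra6-/- label.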

How the data were processed

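The deposited table holds gene counts that the authors divided by a size factor per library (a normalized read signal), made with STAR 2.5.3a on GRCm38/mm10, RSEM 1.2.30 and DESeq2 1.32.0. The 20 columns were matched to samples by title, with 0 left over. Whole reads were recovered in all 20 libraries (multiples of 1 step within 0.02). For edgeR 4.0.16 and DESeq2 1.42.0, 19 of them were used, without replicate 1 of libraries under the VAD Stra6-/- label. The main test was limma 3.58.1 in R 4.3.3 on log2(value + 1), with 4 group means and an intensity trend, over 18807 genes with at least 5 reads in all, with Benjamini-Hochberg adjustment and calls at an adjusted p under 0.05. On simulated data limma called 90 of 92 genes changed by a log2 of 1 and 108 of 108 changed by 2, with 9 false calls of 17568 genes. The simulation gave all genes and groups 1 spread, without a split within a group like that of VAD WT. Its rates therefore need not hold for these libraries. Named genes were all 9 crystallins, Stra6, the 3 genes most like each, and of each list the 3 highest, with its counts; Xist, Ddx3y and other list members were named after their values were seen. Members and lists were chosen with earlier results of these data known. Levels per kilobase used the median transcript length in GENCODE vM21. The authors' multifactor DESeq2 model called genes beyond a log2 of 2, tried here as an alternative. The labels do not tie libraries to litters or batches, so p-values measure only the spread between these libraries. Libraries under the VAD Stra6-/- label held both Xist and Ddx3y, and whether each came from 1 animal was not tested. Some members of the lists are not reported here by name.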

Additional observations from a re-analysis of the deposited data

Results flagged for a closer look

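The interaction term of the limma fit was called for 8 crystallins, on the log2 scale: Cryaa 2.74, Cryba2 2.53, Cryba1 2.13, Crybb2 1.81, Crybb1 1.72, Crygs 1.55, Crybb3 1.14 and Cryab 0.99, each positive. Of all genes tested, 19.5% were called higher in it. Stra6 itself was near the VAS WT level in libraries under the VAD Stra6-/- label, and near that of VAS Stra6-/- in VAD WT replicates 1, 3 and 5. The term is therefore that of the labels only. For Cryaa it was 1.93 without VAD WT replicates 2 and 4 and 3.96 without replicates 1, 3 and 5, a split made after the values were seen.

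Cryaa in VAS WT replicate 4 was at 3217 normalized reads, below the 3591 to 3699 of the other 4, a gap beyond Dixon's critical value for 5 samples. It was 1 of 36 groups tested (9 genes in 4 groups), and chance flags about 1 in 20.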

How the results depend on the processing

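The count of 8 crystallins called lower in VAS Stra6-/- than in VAS WT stayed at 8 or 9 under every alternative run. Over all genes, 1653 to 3671 were called lower in those fits. In VAD WT against VAS WT, the 4 called lower became 2 with edgeR, 2 without the intensity trend, 0 with only the 2 groups in the fit, 0 beyond a log2 of 2 (the study's threshold) and 9 without replicates 1, 3 and 5 of VAD WT, and 2 to 6 when single libraries were left out. Of all 18807 genes, 1034 were called lower in the main fit, 844 with edgeR, 932 without the trend and 438 with only the 2 groups. There were 2947 without replicates 1, 3 and 5, and 810 to 1471 when single libraries were left out. In libraries under the VAD Stra6-/- label against VAS Stra6-/-, the 6 called higher became 2 beyond a log2 of 1, 0 beyond 2, and 3 to 7 when single libraries were left out. All-gene calls higher were 4596 in the main fit and 4356 to 4821 when single libraries were left out. Against VAD WT, the 4 called lower became 8 without replicates 2 and 4 of VAD WT, 0 without replicates 1, 3 and 5, 0 beyond a log2 of 2, and 3 to 6 when single libraries were left out, and the 1 called higher became 4 without replicates 1, 3 and 5, 0 beyond 1 and 0 beyond 2. All-gene calls lower were 5569 in the main fit, 6108 without replicates 2 and 4, and 5416 without replicates 1, 3 and 5. They were 5322 to 5730 when single libraries were left out. Calls higher over all genes were 4935 in the main fit and 4403 without replicates 1, 3 and 5. In the interaction, the 8 called became 3 beyond a log2 of 2. Thresholds on the fold change lower counts by their construction, and all-gene counts beyond them are not reported here. Leaving out libraries moved counts both up and down, and the causes of this were not tested.

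Signs turned for Cryba4 in libraries under the VAD Stra6-/- label against VAS Stra6-/- (0.22 with edgeR and 0.22 with DESeq2, -0.30 to 0.20 when single libraries were left out) and for Cryaa against VAD WT (-0.38 to 0.16 when single libraries were left out). The edgeR and DESeq2 fits also left out replicate 1 under the VAD Stra6-/- label, and limma without that library gave 0.06 for Cryba4. Without replicates 2 and 4 of VAD WT, Cryba4 was at 0.11 in VAD WT against VAS WT and at -0.16 in the interaction. Without replicates 1, 3 and 5, libraries under the VAD Stra6-/- label stood above VAD WT by 1.17 for Cryaa, 0.70 for Cryba1, 0.69 for Cryba2, 0.56 for Crybb2 and 0.30 for Crygs. Both alternatives that split VAD WT, and scaling to equal library totals, were chosen after seeing the data. Scaling alternatives moved the median of all genes by under 0.1.

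Same-numbered libraries of different groups did not deviate together (r from -0.134 to 0.0948 over 30 pairs), so they share only a number. With the replicate block the counts were 8, 4, 6, 4 and 8 called in the 5 comparisons and 1 higher against VAD WT, as without it. The all-gene counts with the block were 1932, 932, 4557, 5528 and 3613 in the same order, and 4895 higher against VAD WT. Depth limits the lowest genes most: Crybb1, Crybb3 and Cryba4 had under 100 reads per library in both Stra6-/- groups.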
